A study of Mus musculus with 4 samples.

Results

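The genes described here encode the nuclear subunits of the respiratory chain and of the mitochondrial ATP synthase in primary mouse mesenchymal stromal cells (MSCs). They were taken by symbol: every gene on the array whose symbol begins with Ndufa, Ndufb, Ndufc, Ndufs or Ndufv, with Uqcr, with Cox4 to Cox8 or with Atp5, together with Sdha, Sdhb, Sdhc and Sdhd, and without the Ndufaf assembly factors. That gave 85 of the 21154 genes named on the array, read by 114 probes. Complex I had 38 of them, complex II 4, complex III 8, complex IV 18 and complex V, the ATP synthase, 17. The rule itself uses symbols only, and no measured values.

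Islr encodes Meflin, a cell surface and secreted protein of stromal cells. The knockdown group was 3 arrays, 1 for each of 3 short hairpin RNAs with different target sequences in Islr, called hairpins 1, 2 and 3 after their label numbers. The group they were set against was 1 array of cells with a control hairpin (shControl). All 4 cultures were primary MSCs at passage 5, with the hairpins delivered by a retrovirus. The labels give no mouse strain, age or tissue of origin, and leave out whether 1 MSC preparation supplied them all, so the spread between arrays may be technical.

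The respiratory chain passes electrons from NADH through complex I, and from succinate through complex II, to ubiquinone, then through complex III to cytochrome c and through complex IV to oxygen. Complexes I, III and IV pump protons across the inner mitochondrial membrane, and the ATP synthase lets them back in to drive the making of ATP. Except for complex II, each complex joins subunits encoded in the nucleus with others encoded in mitochondrial DNA; the genes here are the nuclear ones. In MSCs, oxidative phosphorylation is known to be less used than glycolysis in the undifferentiated state and to increase on differentiation.

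A level here is the log2 processed signal of a probe minus the log2 of the 75th percentile of its array. A difference is the level on a shIslr array minus that on the shControl array, so a difference of 0.32 means 25% more signal and 0.58 means 1.5-fold. The share of the 59305 features well above background was 49.4%, 51.3% and 53.8% on hairpins 1, 2 and 3, against 50.9% on the shControl array. Islr was at -5.24, -2.63 and -6.98 on hairpins 1, 2 and 3, against 0.04 on the shControl array. On hairpins 1 and 3 its probe was not well above background, which made Islr at least 20.5-fold and 29.6-fold lower there, against the lowest signal called above background on each array, and 6.33-fold lower on hairpin 2. All 13 MSC markers examined, Thy1, Eng and Pdgfra among them, were well above background on all 4 arrays. The pan-leukocyte marker Ptprc was above background on none, although Cd68, Cd14, Itgam, Ly6c1 and Cd3e, of 10 haematopoietic markers, were above it on every array.

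Of the 85 genes, 82 were well above background on all 4 arrays. The remaining 3, Cox7b2, Cox8b and Cox8c, are isoforms of complex IV known from testis or from muscle and brown fat, and were above background on none of the arrays. The median level of the 82 was 5.97, and that of the 13567 genes tested was 1.03, although levels of different probes do not compare amounts of RNA. In whole cultures, fewer cells of a type and less RNA per cell cannot be told apart.

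No subunit gene passed the test of the 3 hairpin arrays against the shControl array. limma called 0 of the 82 at a Benjamini-Hochberg adjusted p under 0.05, where it called 0.346% of all genes tested, 47 genes, all lower. At an unadjusted p under 0.05 the count was also 0 of 82, against 1.52% of all genes higher and 3.31% lower. Among the 2087 genes with a mean level of at least 4, here called bright, these shares were 0.815% and 0.719%, and 68 of the 82 members are bright. At the adjusted threshold limma called 0 of the 2087 bright genes. It also called 0 of all genes when signal was required on all 4 arrays, as all 82 members had. The smallest p of a member was 0.056, for Ndufa4l2, with an adjusted p of 0.964. limma with an intensity trend called 0 members and 0 of all genes tested. With 1 shControl array, the fit takes the spread between hairpins as the error of both groups, and the number of arrays limits its precision.

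The subunit genes lay close to the shControl array. All 3 differences were smaller than 0.32 in size for 60 of 82 genes (73.2%), against 36.7% of all genes tested and 51.6% of the bright genes. Within 1.5-fold were 77 of 82 (93.9%), against 68.1% of all genes and 83.0% of the bright ones. No member was 1.5-fold or more from the shControl array in 1 direction on all 3 hairpins, where 0.958% of all genes were higher and 3.04% lower, and 0.0958% and 0.431% of bright genes. At 0.32, 1 member, Ndufa4l2, was higher on all 3 hairpins, where 4.39% of all genes and 3.16% of bright genes were, and 0 were lower, where 6.14% of all genes and 1.77% of bright genes were. Counts of 0 or 1 among 82 lie close to the shares of bright genes. The median SD between hairpins was 0.12 for members, 0.16 for bright genes and 0.20 for all genes. The bright genes are not matched to the members in level, with a median level of 5.09 against 5.97. The 3 differences of a gene share the shControl array, so its error moves them together.

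The departures that did occur lay mostly on hairpin 3. The median difference of the 82 genes on hairpin 1 was -0.01 (0.03 under quantile normalization and 0.03 under normexp correction). On hairpin 2 it was 0.07, and -0.01 under normexp correction. On hairpin 3 it was 0.21, and between 0.14 and 0.23 under the other scalings. The same medians over all genes were -0.01, 0.00 and 0.05 on hairpins 1, 2 and 3, and over bright genes 0.01, 0.06 and 0.12. The 68 members that were themselves bright had medians of -0.01, 0.07 and 0.21.

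Hairpin 3 held the highest of the 4 levels for 58 of 82 subunit genes (70.7%), against 34.0% of all genes and 41.3% of bright genes. The median level of the bright genes, 5.09, was below the 5.97 of the members, so these shares are not matched for level. Hairpin 2 was highest for 13, the shControl array for 8 and hairpin 1 for 3. On hairpin 3, 66 of 82 members (80.5%) were above the shControl array, where 55.1% of all genes and 64.5% of bright genes were. Hairpins 1 and 2 had 39 and 53 members above it, or 47.6% and 64.6%, where 49.0% and 50.3% of all genes and 52.8% and 58.9% of bright genes were. On all 3 hairpins at once, 29 members (35.4%) lay above the shControl array, where 27.6% of all genes did, and 8 (9.76%) below it, where 24.6% did. Among bright genes these shares were 34.3% and 17.7%. The 8 were Ndufa7, Ndufa8, Ndufa13, Ndufb10 and Ndufs3 of complex I, Sdhc of complex II, and Cox6b2 and Cox7a2l of complex IV, while the 29 comprised 13 genes of complex I, 5 of complex III, 7 of complex IV and 4 of complex V. With 1 array to a hairpin, none of these shares has a replicate check.

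**Figure D1:**
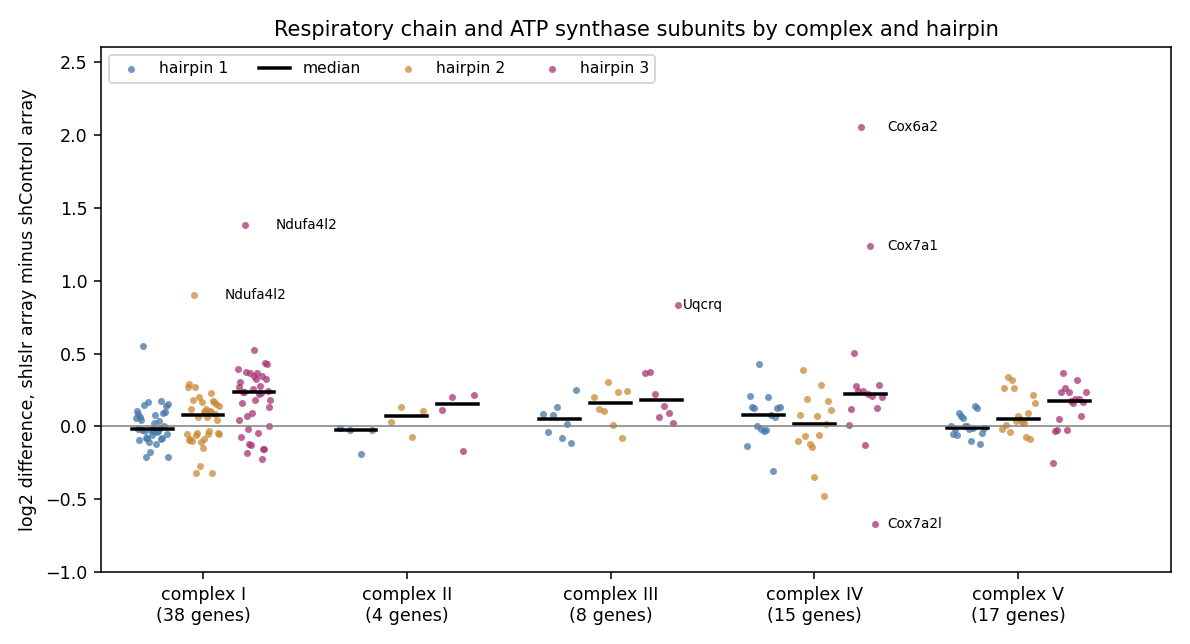
Each point is 1 subunit gene on 1 shIslr array, placed by its log2 difference from the shControl array (vertical axis), in columns by complex and coloured by hairpin; black bars are medians over the genes of a complex. On hairpin 3 the medians lie between 0.16 and 0.23 in all 5 complexes, and the genes far from their complex are named.

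The 5 complexes gave like values. On hairpin 3 the medians were 0.23 for complex I, 0.16 for complex II, 0.18 for complex III, 0.22 for complex IV and 0.17 for complex V, all above 0 under each scaling tried. On hairpin 1 they were -0.02, -0.02, 0.05, 0.08 and -0.01 for complexes I to V, with complex I above 0 under normexp correction and complex V above 0 under both normexp correction and quantile normalization. On hairpin 2 they were 0.08, 0.07, 0.16, 0.02 and 0.05, and complexes I, II, IV and V were below 0 under normexp correction, IV and V under quantile normalization too, and IV under median centring. The plot of differences by complex and hairpin shows that the genes of 1 complex spread more widely than the complexes' medians.

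Where a gene had several probes, they mostly gave the same value. For 22 members with over 1 probe, the median of the largest gap between probe means was 0.04, and it was under 0.1 in 18. The exceptions were Atp5l with a gap of 0.13, Cox7c with 0.20, Ndufv3 with 0.35 and Ndufb11 with 0.42. The Ndufv3 probes had opposite signs, 0.10 and -0.25, so no direction is given for that gene. As a measure of the error within an array, 10 features of the Uqcrc2 probe had an SD of 0.05, 0.06 and 0.05 on hairpins 1, 2 and 3 and 0.05 on the shControl array. The median SD over 244 probes with repeated features was 0.06. For single features of the members, the scanning software gave a median error of 10% of the signal.

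Complex I takes electrons from NADH. The core subunits encoded in the nucleus hold the flavin site and the iron-sulphur clusters. None of those named here averaged as much as 0.32 from the shControl array. Ndufs7, which carries the last iron-sulphur cluster before ubiquinone, was at 5.80, 5.85 and 6.12 on hairpins 1, 2 and 3, against 5.70 on the shControl array. It lay above on each hairpin, by a mean of 0.23 ± 0.18 (SD, n = 3). Ndufs3, a subunit of the arm that protrudes into the matrix, was at 5.99, 5.76 and 5.92 on the hairpins, against 6.07 on the shControl array. Here all 3 hairpins lay below, and the mean difference was -0.19 ± 0.12.

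Ndufs8, an iron-sulphur subunit, averaged 0.14 ± 0.10 with all 3 differences above 0. For Ndufs1, Ndufv1 and Ndufv2 the hairpins fell on both sides of the shControl array or on it. Ndufs1, the largest subunit of the complex, averaged 0.19 ± 0.18. The NADH-binding subunit Ndufv1 averaged 0.01 ± 0.11, with the sign turned by quantile normalization, and its partner Ndufv2 -0.02 ± 0.18. The mean of Ndufs1 was about as large as its spread between hairpins, and those of Ndufv1 and Ndufv2 were smaller than theirs.

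The accessory subunits surround this core and are needed for its assembly and stability. Apart from Ndufa4l2, the highest was Ndufa5, at 6.54, 6.66 and 6.76 on the hairpins, against 6.39 on the shControl array. The mean difference was 0.26 ± 0.11, with all 3 hairpins above. Ndufab1, the mitochondrial acyl carrier protein, was at 1.96, 2.00 and 2.16 on the hairpins, against 1.79 on the shControl array, a mean of 0.25 ± 0.11. The lowest was Ndufa7, at 6.45, 6.34 and 6.47 on the hairpins, against 6.65 on the shControl array. No hairpin reached it, and the mean was -0.23 ± 0.07.

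Ndufa13, also known as the cell death regulator GRIM-19, had the steadiest difference among the accessory subunits named here, -0.09, -0.08 and -0.07 on hairpins 1, 2 and 3. Ndufb4, a subunit of the membrane arm, was at 5.44, 5.56 and 5.99 on the hairpins, against 5.46 on the shControl array. Its difference of 0.52 on hairpin 3 stood beside -0.03 and 0.10 on hairpins 1 and 2. On hairpin 3, 19 of 82 members were higher by at least 0.32, close to the shares of 24.2% of all genes and 25.2% of bright genes. Of these 19, 12 belong to complex I, which holds 38 of the 82.

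**Figure D2:**
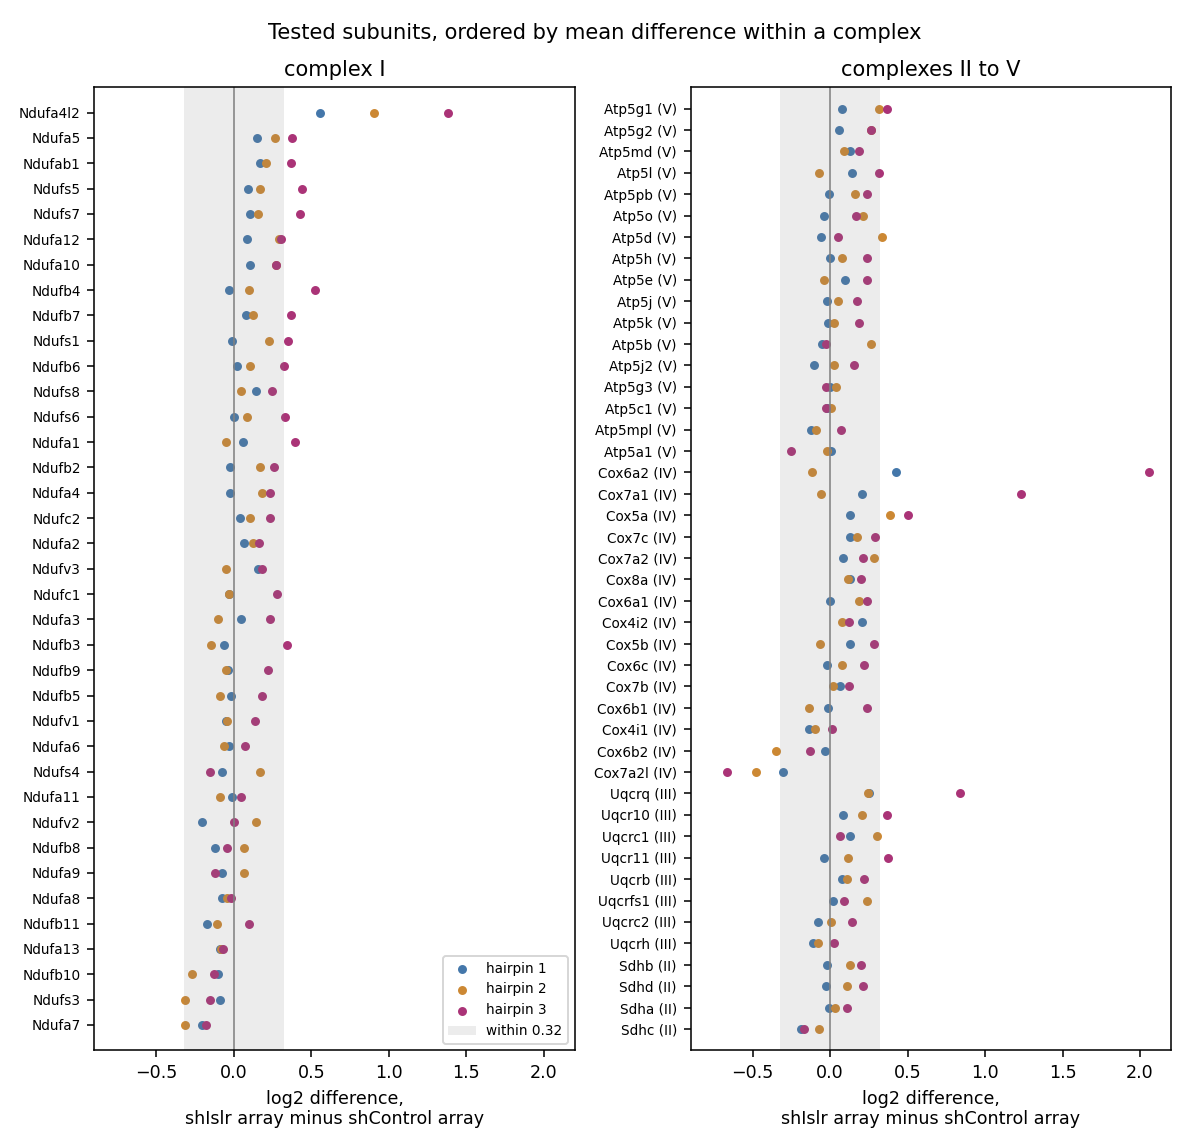
Log2 difference from the shControl array (horizontal axis) of 81 measured subunit genes, 1 row a gene and 1 point a hairpin, ordered by mean difference within a complex; the grey band marks differences under 0.32. Most points lie inside the band, and 19 of the 81 hairpin 3 points lie to the right of it, where 24.2% of all genes tested lay.

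Ndufa4l2 stood apart within its group. Its symbol places it in complex I, while the related protein Ndufa4 is now regarded as a subunit of complex IV; Ndufa4l2 is known as a target of the hypoxia-inducible factor HIF-1 that lowers oxygen use. It was at 1.49, 1.83 and 2.32 on hairpins 1, 2 and 3, against 0.93 on the shControl array. All 3 hairpins lay above the shControl array, 1.47-fold, 1.87-fold and 2.61-fold. The mean difference was 0.95 ± 0.42 (limma adjusted p = 0.964). Ndufa4 itself averaged 0.13 ± 0.14, and the difference of Ndufa4l2 from the shControl array exceeded that of Ndufa4 by 0.58, 0.72 and 1.15 on the 3 hairpins, a mean of 0.81 ± 0.30.

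Complex II is the citric acid cycle enzyme succinate dehydrogenase, and all 4 of its subunits stayed within 0.32 of the shControl array on every hairpin. The flavoprotein Sdha was at 4.16, 4.20 and 4.28 on the hairpins, against 4.17 on the shControl array, a mean difference of 0.04 ± 0.06. The iron-sulphur subunit Sdhb averaged 0.10 ± 0.11. The membrane anchors differed in direction: Sdhc was at 3.52, 3.64 and 3.55 on the hairpins, against 3.71 on the shControl array, while Sdhd was at 5.16, 5.29 and 5.40, against 5.19. Sdhc lay below the shControl array on all 3 hairpins, with a mean difference of -0.14 ± 0.06, and Sdhd lay on both sides of it, with a mean of 0.10 ± 0.12.

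Complex III hands electrons from ubiquinol to cytochrome c. Its most distant gene was Uqcrq, which encodes a small subunit that contacts cytochrome b. Uqcrq was at 7.34, 7.33 and 7.92 on hairpins 1, 2 and 3, against 7.09 on the shControl array. Each hairpin lay above, with hairpin 3 (1.78-fold) away from the other two, and the mean difference was 0.44 ± 0.34 (limma adjusted p = 0.964). Its second probe gave 0.48 where the first gave 0.44. Without hairpin 3 the mean was 0.25.

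The other 7 complex III genes were nearer to the shControl array. The small subunit Uqcr10 averaged 0.22 ± 0.14, and the core protein Uqcrc1 0.17 ± 0.12, each with all 3 hairpins above. The Rieske iron-sulphur protein Uqcrfs1, which carries the electron from ubiquinol toward cytochrome c, was at 4.56, 4.78 and 4.64 on the hairpins, against 4.54 on the shControl array. That is a mean of 0.12 ± 0.11, with hairpin 2 the highest. The second core protein, Uqcrc2, averaged 0.02 ± 0.11, a sign that turned under quantile normalization. Uqcrh, the hinge protein at the cytochrome c1 side, was the lowest, at -0.06 ± 0.07.

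Complex IV, cytochrome c oxidase, held the largest single differences in either direction, those of Cox6a2 and Cox7a2l on hairpin 3. The lowest mean of all 82 was that of Cox7a2l, known as SCAF1 or COX7RP, which joins complex III to complex IV in respiratory supercomplexes. It was at 6.88, 6.71 and 6.52 on hairpins 1, 2 and 3, against 7.18 on the shControl array. Each hairpin lay below, 1.23-fold, 1.39-fold and 1.59-fold, and the mean difference was -0.48 ± 0.18 (limma adjusted p = 0.964). Its 3 probes gave means between -0.48 and -0.47. Over the settings tried, the mean lay between -0.57 and -0.39.

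Cox5a, a subunit on the matrix side that binds thyroid hormone metabolites in other work, was at 6.86, 7.11 and 7.23 on the hairpins, against 6.73 on the shControl array. All 3 hairpins lay above, by a mean of 0.34 ± 0.19. Cox5b, the zinc-binding subunit beside it, had differences of 0.13, -0.06 and 0.28, a mean of 0.11 ± 0.17. Cox4i1, the largest nuclear subunit and the site of ATP inhibition, was at 7.19, 7.23 and 7.34 on the hairpins, against 7.33 on the shControl array. Its mean of -0.07 ± 0.07 did not exceed the spread between hairpins. The small subunits Cox7c, Cox8a and Cox7b, which ring the catalytic core, lay above the shControl array on all 3 hairpins, with means of 0.20 ± 0.08, 0.15 ± 0.05 and 0.07 ± 0.05.

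**Figure D3:**
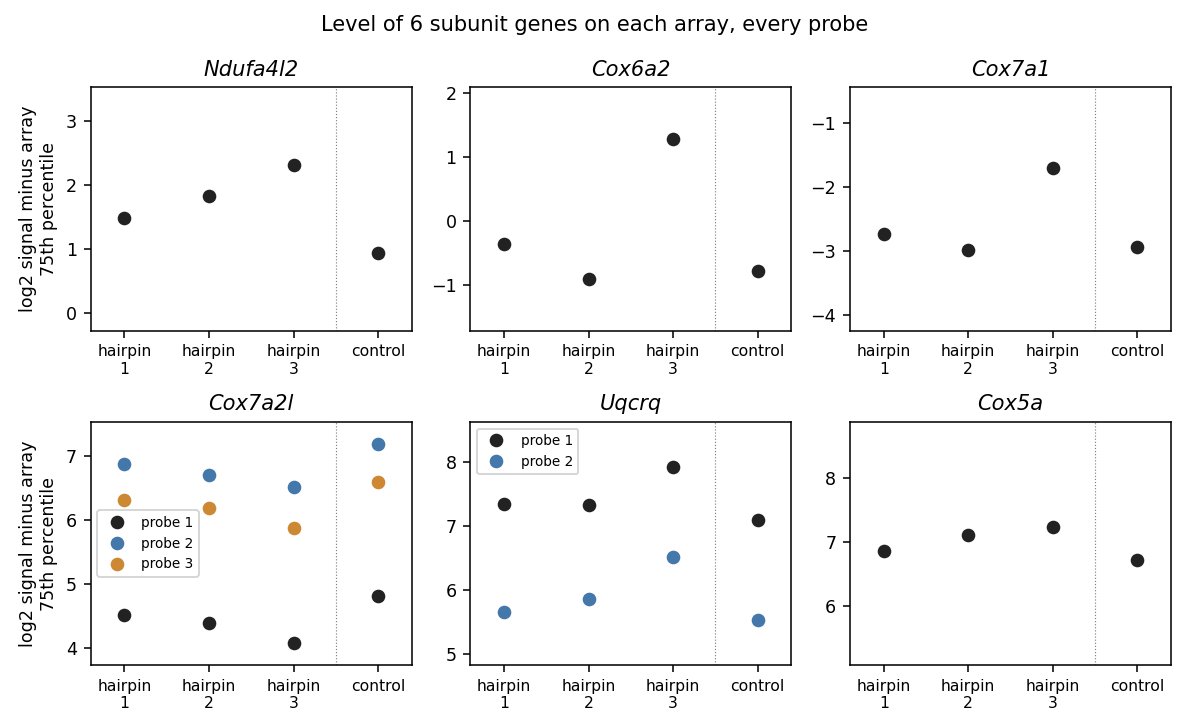
Level of 6 subunit genes on each array, as log2 signal minus the 75th percentile of that array (vertical axis), with the 3 shIslr arrays left of the dotted line and the shControl array right of it; where a gene has several probes each has its own colour. Ndufa4l2 lies above the shControl array and Cox7a2l below it on all 3 hairpins, while Cox6a2 and Cox7a1 are highest on hairpin 3, and below the shControl array on hairpin 2.

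The isoforms of heart and skeletal muscle were highest on hairpin 3. Cox6a2, the muscle isoform of subunit VIa, was at -0.35, -0.89 and 1.28 on hairpins 1, 2 and 3, against -0.77 on the shControl array. Hairpin 3 was 4.16-fold higher, hairpin 1 differed by 0.43 and hairpin 2 by -0.12, and the mean was 0.79 ± 1.13. Cox7a1, the isoform of subunit VIIa in muscle and brown fat, was at -2.72, -2.98 and -1.69 on the hairpins, against -2.93 on the shControl array. Hairpin 3 was 2.35-fold higher, hairpin 2 lay below, and the mean was 0.46 ± 0.68. Without hairpin 3 the means were 0.15 for Cox6a2 and 0.07 for Cox7a1.

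Markers of muscle and fat were read on the same arrays. Of 11 skeletal and cardiac muscle markers, 2, 4 and 4 were above background on hairpins 1, 2 and 3, against 3 on the shControl array. The log2 of their summed signal was 3.73, 3.17 and 3.15 on the hairpins, against 2.87 on the shControl array, most of it from Acta1. Myod1, Myog, Ckm, Actc1, Myh1 and Myh4 were above background on none of the 4 arrays. Tnnt2 was highest on hairpin 3, at -2.36 against -3.34 on the shControl array, and Tnni3 was above background on hairpin 3 only. Other markers did not follow hairpin 3: Acta1 was highest on hairpin 1, at 3.70 against 2.81 on the shControl array. Myh6 was above background on hairpin 2 only. Of 6 fat markers, 2 were above background on every array, Fabp4 and Ucp1, with summed levels of -0.52, 0.57 and 0.54 on the hairpins, against 0.52 on the shControl array. The 2 went opposite ways on hairpin 3. Fabp4 was highest there, at 0.38, against -1.16 on the shControl array, while Ucp1 was lowest there, at -3.53 against -0.08. The part of such cells in the Cox6a2 and Cox7a1 values was not tested.

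The widely expressed partners of these isoforms lay nearer to the shControl array. Cox6a1 averaged 0.14 ± 0.12 and Cox7a2 0.19 ± 0.10. The difference of Cox6a2 from the shControl array minus that of Cox6a1 was 0.42, -0.30 and 1.81 on hairpins 1, 2 and 3, and for Cox7a1 minus Cox7a2 it was 0.12, -0.34 and 1.02. For Cox7a2l against Cox7a2, its relative in the same subunit family, the values were -0.38, -0.76 and -0.88, a mean of -0.67 ± 0.26. These are differences from the shControl array, not levels: that of Cox7a2l was below that of its relative on all 3 hairpins, and those of the muscle isoforms were above on hairpins 1 and 3 and below on hairpin 2.

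The isoform of subunit IV known to be induced by low oxygen, Cox4i2, was dim, at -1.48, -1.61 and -1.57 on the hairpins, against -1.69 on the shControl array. Its difference from the shControl array exceeded that of Cox4i1 by 0.34, 0.18 and 0.11 on hairpins 1, 2 and 3, a mean of 0.21 ± 0.12. Cox6b2, known from testis, was at -2.15, -2.46 and -2.25 on the hairpins, against -2.12 on the shControl array. Its difference minus that of Cox6b1 averaged -0.20 ± 0.18. Only 1 of 5 germ cell markers, Prm1, was above background on all 4 arrays.

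**Figure D4:**
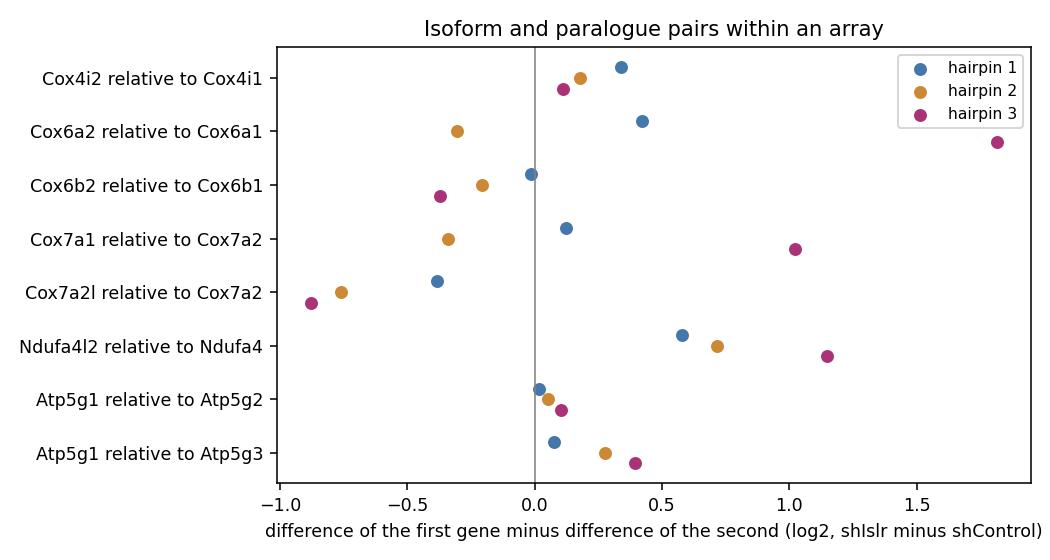
Difference of an isoform minus the difference of its relative on the same array (horizontal axis, log2 of shIslr over shControl), 1 row a pair and 1 point a hairpin. The Ndufa4l2 pair lies to the right of 0 and the Cox7a2l pair to the left on all 3 hairpins, and the pairs with Cox6a2 and Cox7a1 spread to both sides.

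In the ATP synthase, 15 of 17 genes were within 0.32 of the shControl array on all 3 hairpins. Its catalytic head is built of the alpha subunit Atp5a1 and the beta subunit Atp5b around the gamma shaft Atp5c1. Atp5c1 was at 6.39, 6.42 and 6.38 on the hairpins, against 6.41 on the shControl array, a mean of -0.01 ± 0.02. Atp5a1 was the lowest gene of the complex, at 6.24, 6.22 and 5.99 on the hairpins, against 6.24 on the shControl array. Only hairpin 3 lay away from it, by -0.25, and the mean was -0.09 ± 0.14. Atp5b had differences of -0.05, 0.26 and -0.03, so hairpin 2 alone was high.

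Atp5d, the delta subunit, showed the same pattern, with differences of -0.06, 0.34 and 0.05. The membrane ring of the synthase is made of subunit c, 1 protein encoded by Atp5g1, Atp5g2 and Atp5g3. Atp5g1, the copy known to vary with energy demand, was at 6.66, 6.90 and 6.95 on the hairpins, against 6.59 on the shControl array. All 3 hairpins lay above, by a mean of 0.25 ± 0.16, the highest of the complex. Atp5g2 averaged 0.19 ± 0.12, again with all 3 above, and Atp5g3 0.01 ± 0.03. Atp5mpl, a small protein bound to the synthase, averaged -0.05 ± 0.10. The difference of Atp5g1 minus that of Atp5g3 was 0.07, 0.28 and 0.39 on hairpins 1, 2 and 3.

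Other genes that serve the same machinery were set beside the subunits as lists, and none of their members passed limma except Mxi1 in the hypoxia list, which was above background on the shControl array only. As a background, 27.6% of all genes and 34.3% of bright genes lay above the shControl array on all 3 hairpins, and 24.6% and 17.7% below. Of 48 assembly factors tested, 18 (37.5%) lay above it on all 3 hairpins and 7 (14.6%) below, with medians of 0.02, 0.08 and 0.24 on hairpins 1, 2 and 3. Their ends were Cox18, an insertase for a complex IV subunit, at 0.50 ± 0.24, and Surf1, a complex IV assembly factor, at -0.29 ± 0.14. Mitochondrial ribosomal proteins, which make the subunits encoded in mitochondrial DNA, were taken by the symbol prefixes Mrpl and Mrps. A prefix does not settle the role of each gene, Mrps36 included. Of the 77 tested, 46 (59.7%) lay above on all 3 hairpins and 2 (2.6%) below. Their medians were 0.07, 0.14 and 0.27. Mrps6 was the highest at 0.53 ± 0.35 and Mrps36 the lowest at -0.31 ± 0.51.

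Of 21 genes for electron carriers and other points of electron entry, 10 (47.6%) lay above on all 3 hairpins and 3 (14.3%) below, with medians of 0.09, 0.00 and 0.24. Cycs, cytochrome c, was at 5.73, 5.80 and 6.02 on the hairpins, against 5.43 on the shControl array, a mean of 0.41 ± 0.15. Cyc1, the cytochrome c1 of complex III whose symbol falls outside the Uqcr group, averaged 0.24 ± 0.10. The ends of that list were Pdss1 and Etfa. Pdss1, of ubiquinone synthesis, averaged 0.57 ± 0.15, and Etfa, the alpha subunit of the electron transfer flavoprotein, averaged -0.34 ± 0.21. Etfb, of the same flavoprotein, averaged 0.16 ± 0.13, with all 3 hairpins above. Cycs, Cyc1 and Etfb were named here after their values were seen.

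Of 19 citric acid cycle genes, 7 (36.8%) lay above on all 3 hairpins and 2 (10.5%) below, from Suclg2 at 0.43 ± 0.21 to Idh3b at -0.13 ± 0.12. Of 19 regulators of mitochondrial biogenesis, 8 (42.1%) lay above and 1 (5.26%) below, from Tfb1m, a mitochondrial rRNA methyltransferase, at 0.44 ± 0.09 to Gabpa, the DNA-binding subunit of the ETS-family factor GABP, at -0.21 ± 0.07. Of 17 genes for cristae and assembly helpers, 9 (52.9%) lay above and 0 below, from Higd1a at 0.36 ± 0.11 to Dmac2 at -0.34 ± 0.52. Of 12 nucleotide carriers and uncoupling proteins, 4 (33.3%) lay above and 4 (33.3%) below. Slc25a5, an ADP/ATP carrier, averaged 0.41 ± 0.04, and Ucp1, the uncoupling protein of brown fat, was at -2.24, -0.51 and -3.53 on the hairpins, against -0.08 on the shControl array.

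Of 16 genes listed here as hypoxia targets, which include the members Ndufa4l2 and Cox4i2, 10 (62.5%) lay above on all 3 hairpins and 2 (12.5%) below. The 2 below were Mxi1 and Isca1, and Isca1 was at only -0.0012 on hairpin 1. The role of each listed gene as a target was not checked. The medians were 0.19, 0.14 and 0.16, and Egln3, an oxygen-sensing prolyl hydroxylase, was the highest at 1.01 ± 0.48. Mxi1, a Max-binding repressor, was not well above background on any hairpin, against a level of -3.41 on the shControl array, which made it at least 1.88-fold, 2.15-fold and 2.72-fold lower on hairpins 1, 2 and 3. Its limma call (adjusted p = 0.0425) rests on signals below background and on a filter that it passed through the shControl array alone. Nothing is read from the call, which was lost in 6 of 11 other settings. Those 11 leave out the intensity trend, under which limma called 0 genes in all. They also leave out the filter on all 4 arrays, which Mxi1 did not pass. Growth genes differed more than the mitochondrial lists. All 9 proliferation markers lay above the shControl array on all 3 hairpins, although Top2a was at only 0.0063 on hairpin 3. Their medians were 0.45, 0.98 and 0.56, and their means ran from Foxm1 at 0.87 ± 0.28 to Pcna at 0.39 ± 0.08. The part of growth in the subunit values was not tested.

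**Figure D5:**
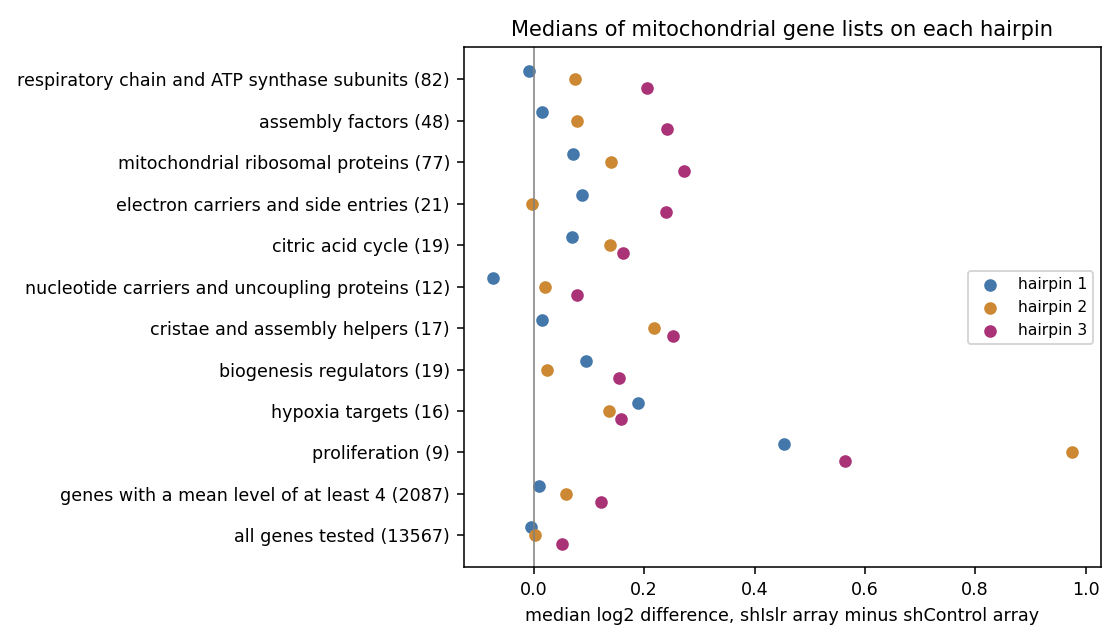
Median log2 difference from the shControl array (horizontal axis) of each gene list, with the number of genes tested, 1 point a hairpin; the last rows give bright genes and all genes tested. For the subunit genes, assembly factors and mitochondrial ribosomal proteins, hairpin 3 is the highest point, at 0.21, 0.24 and 0.27.

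Promoter windows from RefSeq (GRCm38.p6), 250 bases before to 50 after a gene's start, were found for 69 of the 85 genes, in 74 windows. They were searched on both strands for letters bound by factors known to act on these genes. The NRF1-type motif, GCGC, any 2 bases and GCGC, was in 27.0% of member windows, against 6.23% of all 32851 windows. The ETS-type motif CCGGAAG was in 23.0%, against 8.86%. The YY1-type motif AAGATGGCG was in 9.46%, against 1.40%, and the ERR-type motif TCAAGGTCA in 2.70%, against 0.423%. The hypoxia response core ACGTG was in 24.3%, against 19.6%, and the GC box GGGCGG in 40.5%, against 35.7%. No motif contains another, and a match is a description of letters, not of binding.

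The sequences of 4 members show both kinds of window, with matches in capitals. Those of Cox7a2l (chr17:83514284-83514583, minus strand), Cox5a (chr9:57520982-57521281, plus strand) and Cox7a1 (chr7:30183921-30184220, plus strand) are shown because these genes lay far from the shControl array. That of Sdhd (chr9:50603800-50604099, minus strand) is shown because it holds the NRF1-type, ETS-type and ERR-type letters together.
Cox7a2l: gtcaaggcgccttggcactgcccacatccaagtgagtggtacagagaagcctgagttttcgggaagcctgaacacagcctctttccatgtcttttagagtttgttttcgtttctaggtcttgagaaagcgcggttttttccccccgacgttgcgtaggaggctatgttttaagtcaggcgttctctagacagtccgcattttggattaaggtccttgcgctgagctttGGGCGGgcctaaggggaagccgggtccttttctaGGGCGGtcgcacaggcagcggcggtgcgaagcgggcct
Cox5a: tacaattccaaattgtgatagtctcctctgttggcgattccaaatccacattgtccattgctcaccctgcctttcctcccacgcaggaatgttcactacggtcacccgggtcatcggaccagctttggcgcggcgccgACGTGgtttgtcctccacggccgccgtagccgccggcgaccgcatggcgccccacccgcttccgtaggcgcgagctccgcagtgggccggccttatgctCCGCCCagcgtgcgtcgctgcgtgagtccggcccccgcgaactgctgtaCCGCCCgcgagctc
Cox7a1: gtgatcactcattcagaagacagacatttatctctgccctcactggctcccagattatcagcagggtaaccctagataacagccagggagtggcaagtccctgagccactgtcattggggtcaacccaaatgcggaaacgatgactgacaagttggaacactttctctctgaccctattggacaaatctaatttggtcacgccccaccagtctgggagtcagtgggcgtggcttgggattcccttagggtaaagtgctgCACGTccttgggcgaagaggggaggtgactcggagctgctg
Sdhd: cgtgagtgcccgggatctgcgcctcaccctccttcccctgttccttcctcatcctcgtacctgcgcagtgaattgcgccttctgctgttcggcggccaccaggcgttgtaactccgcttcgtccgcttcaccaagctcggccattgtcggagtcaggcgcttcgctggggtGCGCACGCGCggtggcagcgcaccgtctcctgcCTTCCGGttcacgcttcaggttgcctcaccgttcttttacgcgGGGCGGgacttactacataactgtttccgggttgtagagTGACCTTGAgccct

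In capitals, the Cox7a2l window has 2 GC boxes, the Cox5a window 1 hypoxia response core and 2 GC boxes, and the Cox7a1 window 1 hypoxia response core. None of these 3 windows held the NRF1-type, ETS-type, YY1-type or ERR-type letters. Each of these motifs was absent from most member windows. Members near the shControl array lacked them too, such as Ndufb5 at 0.03 ± 0.14 and Ndufb8 at -0.03 ± 0.09. A link between these letters and the differences was not tested. The Sdhd window held 1 NRF1-type, 1 ETS-type and 1 ERR-type motif and 1 GC box, and its gene averaged 0.10 ± 0.12. The ERR-type letters were in 1 other member window, that of Atp5g3, at 0.01 ± 0.03. Ndufa4l2, Uqcrq and Cox6a2 are named only.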

How the data were processed

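Total RNA of 4 cultures was measured on 1-colour Agilent arrays, all on 1 slide. Per the file headers, the authors scanned them with Feature Extraction 11.5.1.1 (protocol GE1_1105_Oct12, design 028005, build mm9); the deposited processed signal is an intensity on a linear scale after background subtraction within an array. The deposited series table holds the same intensity times 1 factor per array, 2.25, 2.08 and 2.02 on hairpins 1 to 3 and 2.10 on the control.

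Probes were named by matching accessions, without version, to RefSeq (28026 of 55681 probes; 21154 genes). Features of a probe were averaged as log2, and the log2 of the array's 75th percentile (415, 435 and 433 on the hairpins, 442 on the control) was subtracted. Probes were kept if the software called them well above background on shControl or else on each of the 3 shIslr arrays (17843), and a gene's brightest kept probe stood for it (13567 genes). The 3 shIslr arrays, the replicates, were compared with the shControl array by limma 3.58.1 in R 4.3.3 (lmFit, eBayes). Tests were two-sided, with Benjamini-Hochberg adjustment over all genes and a threshold of 0.05. The code was tried on simulated data with the same noise for every gene. That does not give its power for differences as small as most of those seen here. A rule of size (0.32 or 0.58 on the log2 scale) and medians describe the lists. No feature was saturated. The values of 1 member are not reported here, though it stays in the counts and medians.

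The members, gene lists and markers were chosen with earlier results of these data known. Genes were named by role (catalytic cores, tissue and oxygen isoforms), as the 2 highest and 2 lowest of a complex, as the members farthest from the other arrays, and as the ends of each list; some accessory subunits and regulators were added after their values were seen. Other settings were quantile normalization, median centring, a 75th percentile over detected probes, normexp (offset 50), the series table, other filters, the mean over probes, no outlier features, an intensity trend and each hairpin left out.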

Additional observations from a re-analysis of the deposited data

How the results depend on the processing

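Under the settings tried, 0 members passed limma, and the smallest adjusted p of a member was 0.746. The 47 genes called in all became 75 under quantile normalization and 0 under normexp correction, with no filter, with signal required on all 4 arrays, with an intensity trend, or with any 1 hairpin left out (0 to 0); the cause was not tested. Members at least 1.5-fold higher on all hairpins numbered 1, Ndufa4l2, when hairpin 1 was left out (0 to 1 over the 3 omissions), as well as at a limit of 0.32 on the log2 scale. Complex II on hairpin 3 had a median of 0.049 under normexp; complex III had 0.084 on hairpin 2 under quantile normalization and 0.081 under normexp, and 0.081 on hairpin 3 under quantile normalization. Without hairpin 3 the median of the members' mean differences was 0.04 in place of 0.10.

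Means near 0 turned sign, none of them called. Under quantile normalization Ndufv1 was at -0.041 and Uqcrc2 at -0.022. Under normexp Ndufv1 was at -0.043, Uqcrc2 at -0.030, Cox6b1 at -0.014 and Sdha at -0.0045. With the percentile over detected probes Ndufv1 was at -0.012, Uqcrc2 at -0.0019 and Atp5g3 at -0.021, and with median centring Atp5g3 was at -0.0067. With 1 hairpin left out the ranges were -0.040 to 0.12 for Atp5b, -0.0024 to 0.20 for Atp5d, -0.012 to 0.020 for Atp5g3, -0.077 to 0.11 for Cox6b1, -0.048 to 0.045 for Ndufv1, -0.10 to 0.072 for Ndufv2 and -0.034 to 0.075 for Uqcrc2. No paired analysis was possible because the control array carries no replicate number.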
